A study of Mus musculus with 24 samples.

Results

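The 10 genes described here encode the main chaperones that carry histone H3 to DNA: the HIRA complex (Hira, Ubn1, Ubn2, Cabin1), the ASF1 pair (Asf1a, Asf1b), the large and middle subunits of CAF-1 (Chaf1a, Chaf1b) and the DAXX/ATRX pair (Daxx, Atrx). They were chosen by their annotated gene symbol. All 10 genes were found, each with 1 probe row, among 26423 rows and 17742 genes with a symbol. The arrays measured RNA of mouse tibialis anterior, a fast muscle of the lower leg, taken at 6 months of age from 4 animals with a Hira conditional knockout (genotype Myf6 cre/+; Hira flox/-) and 4 control animals (Myf6 cre/+; Hira flox/+), on a mixed C57BL6/J and 129S1/SvImJ background. All 8 animals thus carried the Cre allele at Myf6, a gene of differentiated muscle fibres, and 1 floxed copy of Hira. The knockout animals also carried a Hira null copy in all their cells, where the control animals carried an intact one. In cells where Cre cuts the floxed copy, control animals thus keep only their intact copy of Hira and knockout animals have none. Each animal has 3 hybridisations of its RNA, and the animal was the replicate.

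Histone H3 reaches chromatin by separate routes. The HIRA complex places the variant H3.3 outside DNA replication, mainly in active genes. HIRA is its scaffold, UBN1 and UBN2 bind H3.3, and CABIN1, also known as an inhibitor of calcineurin, joins them. DAXX, together with the chromatin remodeller ATRX, places H3.3 in heterochromatin and at telomeres. CAF-1 places the replicative H3 behind the DNA polymerase. ASF1A and ASF1B are paralogs that hold an H3-H4 pair and hand it on: ASF1A works largely with HIRA, and ASF1B is the form most tied to dividing cells. Adult muscle fibres do not divide, so the replication route is at work mainly in the other cells of the tissue.

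The 10 genes matched 12 promoter windows of RefSeq (build GRCm38.p6). The 250 bases before the start of Asf1b are shown because Asf1b was the member that changed. Those of its paralog Asf1a and of Chaf1a, the next smallest p among the members, are set beside them. They lie on the plus strand at chr8:83955444-83955693 (Asf1b), chr10:53596711-53596960 (Asf1a) and chr17:56040166-56040415 (Chaf1a). Capitals mark matches to the CCAAT box (CCAAT on either strand, so also ATTGG) and to the CHR, a short element known from promoters of cell cycle genes (TTTGAA on either strand).
Asf1b: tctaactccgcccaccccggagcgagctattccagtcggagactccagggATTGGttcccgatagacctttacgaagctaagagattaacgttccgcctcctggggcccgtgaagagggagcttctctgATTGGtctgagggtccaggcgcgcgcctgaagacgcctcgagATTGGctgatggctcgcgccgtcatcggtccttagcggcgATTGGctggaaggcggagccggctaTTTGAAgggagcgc
Asf1a: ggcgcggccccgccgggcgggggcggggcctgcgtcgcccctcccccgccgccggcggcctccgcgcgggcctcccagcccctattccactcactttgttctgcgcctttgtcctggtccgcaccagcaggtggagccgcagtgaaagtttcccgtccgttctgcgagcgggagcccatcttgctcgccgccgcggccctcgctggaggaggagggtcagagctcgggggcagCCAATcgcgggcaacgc
Chaf1a: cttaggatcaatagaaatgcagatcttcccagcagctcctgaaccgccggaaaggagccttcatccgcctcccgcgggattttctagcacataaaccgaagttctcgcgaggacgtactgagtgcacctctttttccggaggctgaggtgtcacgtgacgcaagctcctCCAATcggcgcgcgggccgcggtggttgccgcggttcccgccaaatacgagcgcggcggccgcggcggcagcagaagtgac

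The Asf1b window held 4 CCAAT boxes, all on the reverse strand, whose first bases lay 200, 121, 79 and 39 bases before the start, and 1 CHR at 14 bases before it. The matches did not overlap. At least 1 CCAAT box stood in 33.8% of all 32851 windows of 250 bases, and at least 1 CHR in 16.0%. As many CCAAT boxes as in the Asf1b window, 4 or more, stood in 0.840% of the windows, and 4 or more with a CHR in 0.134%. These classes match the content of the Asf1b window itself, so their shares do not test whether it is unusual. Windows of a gene with several starts can overlap. The Asf1a window held 1 CCAAT box, 17 bases before the start, and the Chaf1a window 1, at 81 bases. Members that did not pass the test held such elements too: the Atrx window had 3 CCAAT boxes, those of Ubn1 and Cabin1 had 2 each, 1 of the 3 Daxx windows had 1, and the Ubn2 window had a CHR. An E2F-type word (TTTCCCGC, TTTGGCGC, TTTCGCGC or TTTGCCGC, both strands) was found in 1.86% of all windows and in 0 of the 12 windows of the members. Only these exact words were searched, so other forms of an E2F site in the windows were not counted. These matches describe the letters only.

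Intensities below are linear and come from the authors' scaled table. The value of an animal is the geometric mean of its 3 hybridisations. Differences are knockout minus control in mean log2 intensity, tested with limma over all 26423 rows and adjusted by the Benjamini-Hochberg method with a threshold of 0.05. Nothing in the labels says that the animals come from separate litters, and the array gives no absolute scale, so the level of one gene was not read against that of another. Where a log2 level is subtracted from another within an animal, only the change of that quantity between the groups is read. Summed intensities of a marker list weigh each gene by the brightness of its probe and are likewise compared between the groups only. In whole muscle, fewer cells of a type and less RNA per cell cannot be told apart.

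In knockout muscle 1 of the 10 chaperone genes changed, Asf1b, which rose, where 7.00% of all rows changed, 3.23% higher and 3.77% lower. The other 9 did not pass the test. Of these, 6 had a difference above 0 and 3 below 0, from -0.46 (Chaf1a) to 0.29 (Ubn2). Knockout and control animals did not overlap in 2 members, Asf1b (knockout higher) and Chaf1a (knockout lower), against 15.6% of all rows, 6.37% higher and 9.22% lower. An unadjusted p under 0.05 was reached by the same 2 members and by 21.5% of all rows. The median difference of the 10 members was 0.07, and that of all rows was -0.08.

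**Figure D1:**
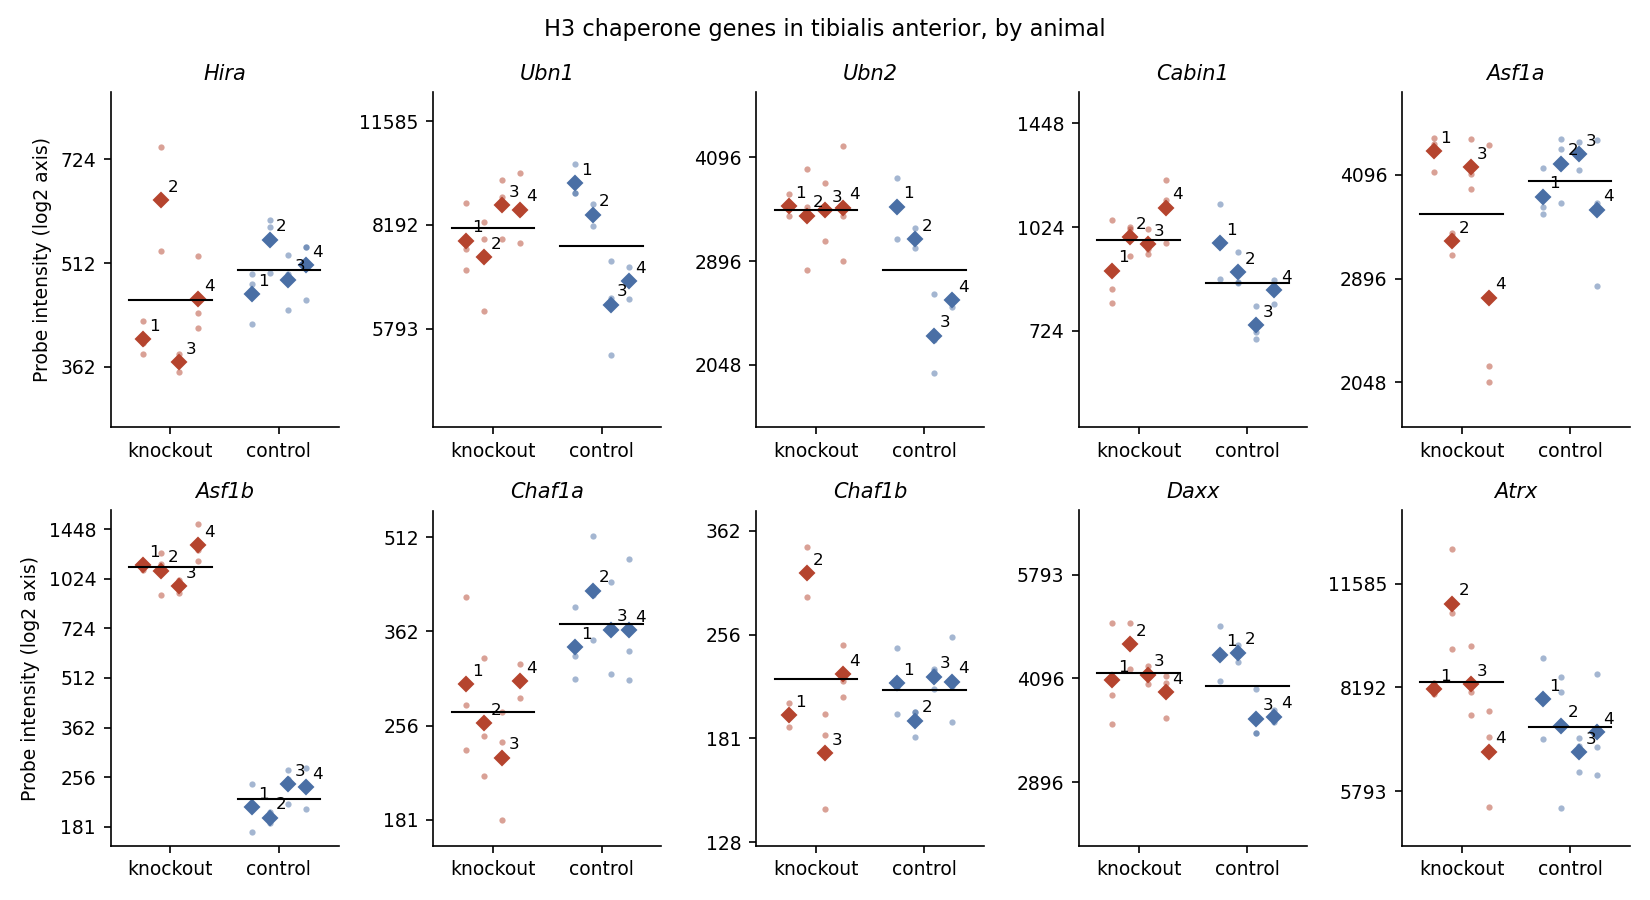
Intensity of the 10 chaperone genes on log2 axes of their own, with knockout at the left and control at the right of each panel; diamonds are animals, numbered 1 to 4 within a group, small points their 3 hybridisations, and lines the geometric mean of a group. Asf1b stands apart, with knockout animals at 974 to 1296 and control animals at 193 to 244, while in the other panels except Chaf1a the groups overlap.

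Asf1b had intensities of 1125, 1085, 974 and 1296 in knockout animals 1 to 4, against 208, 193, 244 and 239 in control animals 1 to 4. All 4 knockout animals lay above all 4 control animals. The same held for single arrays, where the lowest knockout hybridisation read 914 and the highest control hybridisation 273. The difference was 2.34 ± 0.13 (SE; log2), a fold of 5.07 with a 95% interval of 4.14 to 6.21 (limma, adjusted p = 1.3e-05), and the exact two-sided permutation test over the 8 animals gave p = 0.0286, the smallest it can give. By its p, Asf1b ranked 4 of 26423 rows, and by the size of a positive difference it ranked 27. The control values were low but lay above 125, the highest 5th percentile of any array, on all arrays. The spread between animals was small on both sides, with SDs of 0.17 (knockout) and 0.16 (control) on the log2 scale (n = 4 each).

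Its paralog Asf1a did not pass the test. Asf1a had intensities of 4433, 3280, 4198 and 2718 in knockout animals 1 to 4, against 3808, 4254, 4388 and 3645 in control animals 1 to 4. The groups overlapped, and the difference was -0.16 (95% interval -0.52 to 0.20; limma, adjusted p = 0.599). Knockout animal 4 was the lowest of the 8, but its hybridisations disagreed, at 2161, 4522 and 2054, and without that animal the difference was -0.03. The response of the ASF1 paralogs was compared within animals. The log2 level of Asf1b minus that of Asf1a averaged -1.69 ± 0.47 in knockout animals and -4.19 ± 0.22 in control animals (SD, n = 4 each). This difference of differences, 2.50, gave p = 0.0286 in the exact two-sided permutation test (adjusted p = 0.0286 over the 2 pairs compared), which is the smallest p this test can give. Asf1b alone gave the same p, and its groups lay further apart than Asf1a varied over all animals. The p of the paired comparison therefore restates the rise of Asf1b and is not separate evidence of a contrast. Its size ranged from 1.80 to 2.64 over 18 alternative settings.

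Chaf1a, the large subunit of CAF-1, had intensities of 298, 258, 227 and 301 in knockout animals 1 to 4, against 341, 421, 365 and 364 in control animals 1 to 4. The highest knockout animal stood under the lowest control animal. The difference was -0.46 ± 0.13 (SE), with a 95% interval of -0.76 to -0.17 and a fold of 0.725. It did not pass the test over all rows (unadjusted p = 0.0049; limma, adjusted p = 0.061), although 9 of 28 alternative settings gave an adjusted p under 0.05, among them a fit with 1 row per gene (adjusted p = 0.047). The value leaned on the first hybridisation, in which the knockout arrays read 234, 213, 181 and 301 and the control arrays 304, 514, 435 and 473. Without it the difference was -0.25 (limma, adjusted p = 0.314).

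Chaf1b, the middle subunit of CAF-1, had intensities of 196, 314, 172 and 224 in knockout animals 1 to 4, against 218, 192, 223 and 219 in control animals 1 to 4. Knockout animal 2 lay above the other 7 animals, knockout animal 3 lay below all 4 control animals, and knockout animal 1 lay below 3 of them. The difference was 0.06 (95% interval -0.33 to 0.44; limma, adjusted p = 0.883), and without knockout animal 2 it was -0.11. The log2 level of Chaf1a minus that of Chaf1b averaged 0.29 ± 0.39 in knockout animals and 0.81 ± 0.22 in control animals (SD, n = 4 each), with p = 0.0286 for the difference of -0.52 in the exact two-sided permutation test (adjusted p = 0.0286 over the 2 pairs). That p is the smallest this test can give. The result was lost without the first hybridisation (-0.29; p = 0.400, exact permutation test). It was also lost without knockout animal 2 (-0.33), with p = 0.0571 in the exact permutation test. Without any 1 of the control animals p was again 0.0571, but the difference stayed around that of all animals (-0.57 to -0.41). With so few animals the p of this test moves in coarse steps.

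**Figure D2:**
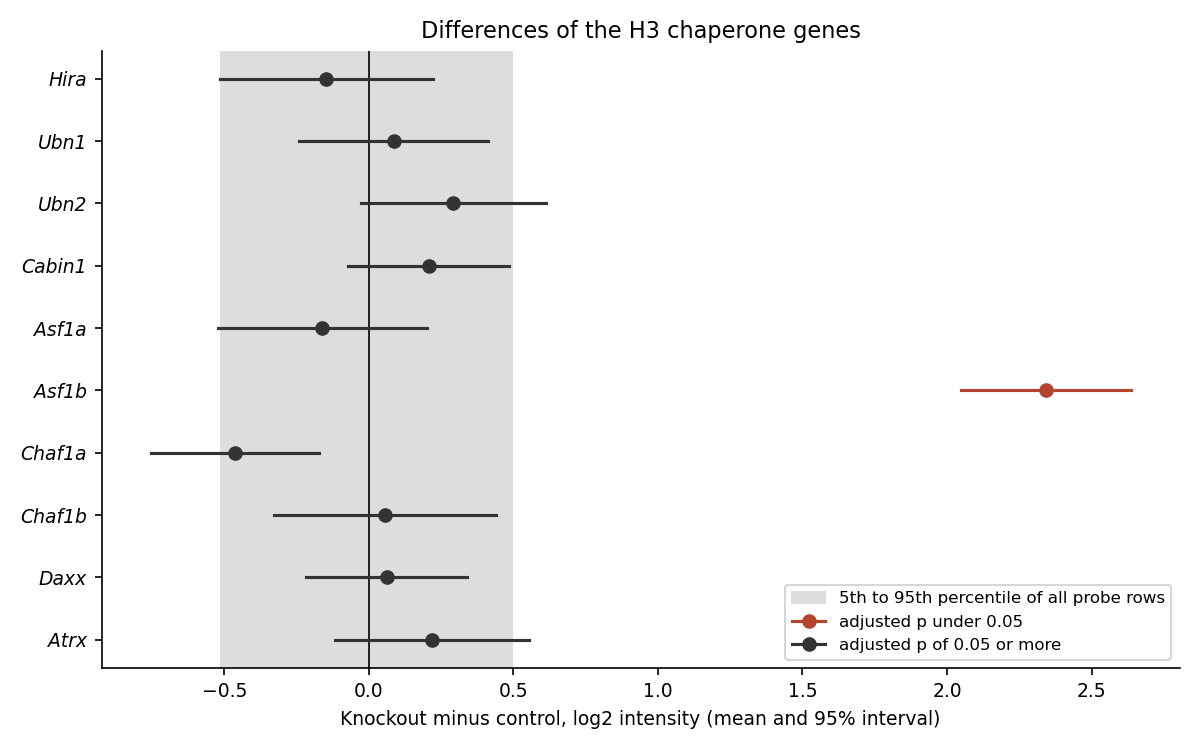
Knockout minus control in log2 intensity for the 10 chaperone genes, with 95% intervals from limma (n = 4 animals in each group); the grey band runs from the 5th percentile (-0.51) to the 95th percentile (0.49) of the differences of all 26423 rows. Asf1b lies at 2.34, outside the band, and the interval of Chaf1a is the only other one that does not reach 0.

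Hira, the targeted gene, had intensities of 397, 633, 368 and 454 in knockout animals 1 to 4, against 462, 554, 485 and 509 in control animals 1 to 4. Knockout animal 2 was the highest of the 8 animals, with hybridisations of 533, 628 and 755, while the other 3 knockout animals were the lowest. The difference was -0.15 (95% interval -0.52 to 0.22; limma, adjusted p = 0.643). Without knockout animal 2 it was -0.31 (adjusted p = 0.209), and without knockout animal 3 it was -0.047 (adjusted p = 0.919). No source at hand places the probe relative to the deleted part of Hira, so its row does not check the genotypes, and cells other than fibres also give RNA to the sample.

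The other members of the HIRA complex did not pass the test. Ubn2 came nearest, with 3479, 3372, 3434 and 3463 in knockout animals 1 to 4, against 3473, 3118, 2256 and 2540 in control animals 1 to 4. The means of the knockout animals were nearly alike, with an SD of 0.02 (log2), while those of the control animals had an SD of 0.28. Single hybridisations differed more, from 2808 to 3936 in knockout animal 2 and from 2896 to 4256 in knockout animal 4. Hybridisations of an animal had an SD of 0.17, so the closeness of the means does not show that the animals were alike. The difference of Ubn2 was 0.29 (95% interval -0.03 to 0.61; limma, adjusted p = 0.270).

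Ubn1 had intensities of 7769, 7353, 8740 and 8619 in knockout animals 1 to 4, against 9412, 8473, 6278 and 6781 in control animals 1 to 4. Its control animals 1 and 2 lay near or above the highest knockout animals, and its control animals 3 and 4 lay below every knockout animal. The difference was 0.09 (95% interval -0.24 to 0.41; limma, adjusted p = 0.778). Cabin1 had 886, 989, 968 and 1093 in knockout animals 1 to 4, against 971, 880, 737 and 830 in control animals 1 to 4, and its groups overlapped. Its difference was 0.21 (95% interval -0.07 to 0.49; limma, adjusted p = 0.367). In Ubn1, Ubn2, Cabin1, Daxx and Atrx alike, control animals 3 and 4 were lower than control animals 1 and 2. In Asf1b and Chaf1b they were higher, and in Hira, Asf1a and Chaf1a the order was mixed.

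The labels number the animals in separate ranges, with animals 1 and 2 of both groups in the lower range and animals 3 and 4 in the higher, and do not say what the ranges stand for. Among animals 1 and 2 the difference of Ubn2 was 0.058, and among animals 3 and 4 it was 0.53. For Ubn1 the values were -0.24 and 0.41, and for Cabin1 0.018 and 0.40. None of these 6 values passed the test with 2 animals in each group (limma, adjusted p = 0.097 to 0.971), and the change of the difference between the ranges was not tested. Asf1b differed by 2.46 among animals 1 and 2 and by 2.22 among animals 3 and 4 (limma, adjusted p = 0.043 and 0.030). The remaining members, given in the same order, did not share the direction of Ubn2, Ubn1 and Cabin1, except Daxx (-0.042 and 0.17). Hira stood at -0.013 and -0.28, Atrx at 0.32 and 0.12, and Chaf1b at 0.28 and -0.17. Asf1a stood at -0.08 and -0.24, and Chaf1a at -0.45 and -0.48. None of these passed the test.

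Daxx, which binds H3.3, had intensities of 4069, 4591, 4148 and 3913 in knockout animals 1 to 4, against 4433, 4465, 3581 and 3604 in control animals 1 to 4. The groups overlapped, and knockout minus control was 0.06 (95% interval -0.22 to 0.34; limma, adjusted p = 0.810). Atrx, the remodeller that works with it, had 8142, 10838, 8275 and 6613 in knockout animals 1 to 4, against 7873, 7212, 6602 and 7052 in control animals 1 to 4. The groups overlapped, knockout animal 2 was again the highest, and the difference was 0.22 (95% interval -0.12 to 0.55; limma, adjusted p = 0.430), or 0.091 without that animal. Knockout animal 2 was the highest knockout animal in 4 of the 10 members, Hira, Chaf1b, Daxx and Atrx, and the lowest in 2, Ubn1 and Ubn2.

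**Figure D3:**
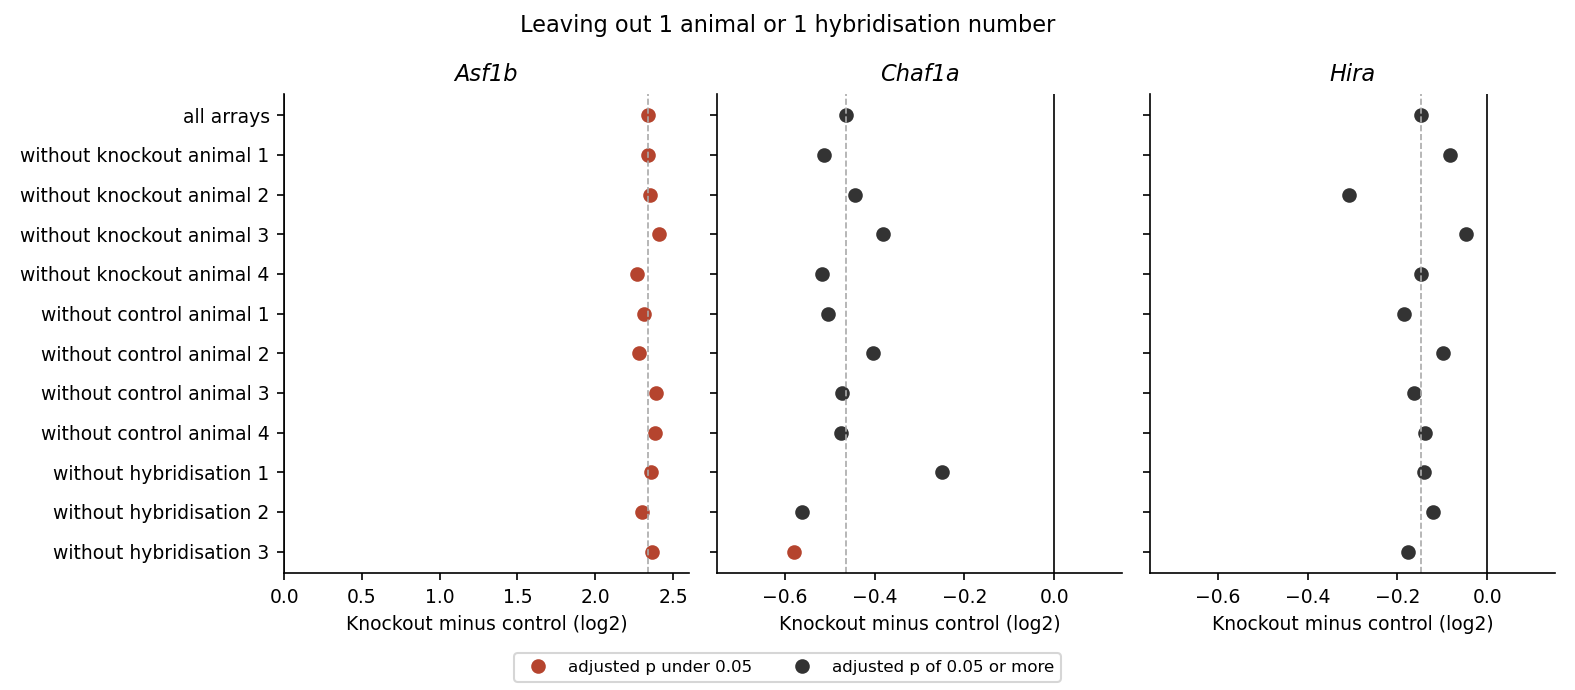
Knockout minus control in log2 intensity for Asf1b, Chaf1a and Hira with all arrays and with 1 animal or 1 hybridisation number left out; dashed lines mark the value with all arrays, and the axis of Asf1b covers a wider range than the others. Asf1b stays between 2.27 and 2.41 and passes the test each time, Chaf1a lies between -0.58 and -0.25 and passes it only without hybridisation 3, and Hira between -0.31 and -0.05.

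Genes that work with these chaperones were read from lists. Of 46 listed genes 37 were measured, and 1 rose and 1 fell, near the background, where 7.85% of genes changed when each was represented by its brightest row (3.73% higher, 4.12% lower; 23.2% had an unadjusted p under 0.05). Both stood among 18 measured chaperones and handlers of H3 and H4 outside the 10 members (median difference -0.08; median of all genes -0.07), of which 7 had an unadjusted p under 0.05. Nasp, which shelters soluble H3-H4 and passes it to ASF1, rose to 3502 to 4122 in knockout animals, against 2122 to 2509 in control animals. Its difference was 0.69 ± 0.12 (SE; limma, adjusted p = 0.0057), and a second row gave 0.32. Mcm2, a replication helicase subunit that also binds H3-H4, fell to 563 to 691 in knockout animals, against 828 to 936 in control animals, and its difference was -0.51 ± 0.12 (SE; limma, adjusted p = 0.025). The other 16 did not pass. Among them were the histone-binding protein Rbbp4, which is the small subunit of CAF-1 (0.39; limma, adjusted p = 0.159), and Dek, an H3.3-binding protein of chromatin (-0.44; adjusted p = 0.085). Supt6 (0.38; limma, adjusted p = 0.102), Nap1l4 (-0.36; adjusted p = 0.105) and Set (-0.34; adjusted p = 0.150) completed the 7. In these 3, Dek, Nasp and Mcm2 the groups did not overlap, as in 15.6% of all rows.

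H3f3b, the measured 1 of the 2 H3.3 genes listed, had a level of 18122 to 26267 in knockout animals and 19704 to 26458 in control animals. Its difference was -0.02 (95% interval -0.36 to 0.33; limma, adjusted p = 0.958). Among 7 measured partners of DAXX and ATRX 0 passed the test and 0 had an unadjusted p under 0.05 (median difference 0.02). The smallest p were those of the heterochromatin protein gene Cbx5 (-0.25; limma, adjusted p = 0.237) and of Morc3 (0.24; adjusted p = 0.374), a protein of PML bodies. Among 11 measured genes of calcineurin and its targets, the pathway that CABIN1 can inhibit, 0 passed and 0 had an unadjusted p under 0.05 (median -0.01). The calcineurin inhibitor Rcan1 stood at -0.28 (limma, adjusted p = 0.296) and the regulatory subunit Ppp3r1 at 0.37 (adjusted p = 0.301).

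Markers of replicating and cycling cells were read beside Asf1b. Of 21 measured, 1 rose and 0 fell, where 3.73% of all genes rose and 7.85% changed. An unadjusted p under 0.05 was reached by 8 of the 21 and by 23.2% of all genes. Of these 8, Rrm2, Mki67, Rrm1, Cdk1 and Aurkb were higher in knockout animals, and Mcm3, Mcm4 and Mcm6 were lower. The median difference was 0.22, against -0.07 over all genes. The gene that rose was Rrm2, a subunit of ribonucleotide reductase, at 465 to 1296 in knockout animals, against 213 to 284 in control animals (difference 1.47 ± 0.28, SE; limma, adjusted p = 0.011). Mki67, the usual marker of cycling cells, stood at 0.58 (limma, adjusted p = 0.087) and Top2a at 0.54 (adjusted p = 0.282). The 5 MCM helicase genes of this list did not pass and lay on both sides of 0, with Mcm6 at -0.94, Mcm3 at -0.45, Mcm4 at -0.31, Mcm5 at -0.03 and Mcm7 at 0.22 (limma, adjusted p = 0.065 to 0.953). The summed intensity of the 21 markers was 23073 to 24885 in knockout animals and 17396 to 20805 in control animals, without overlap. Without Mki67, the brightest of them, the sums were 14672 to 15815 in knockout animals and 13097 to 14685 in control animals, which overlapped. The group means of Cdk1, Cdc6 and Gins2 were below 125 in both groups, and that of Top2a was below it in control animals (93). The part of cycling cells in the level of Asf1b was not tested.

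**Figure D4:**
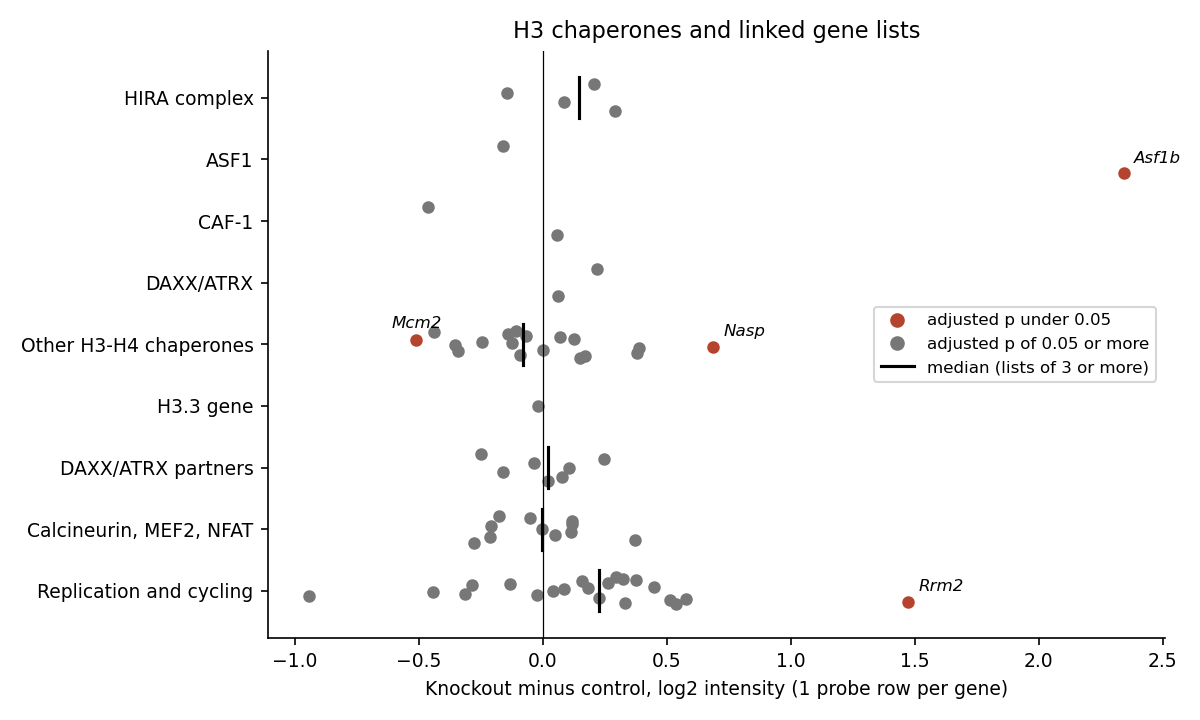
Knockout minus control in log2 intensity, 1 point per gene, for the 10 chaperone genes by complex and for 5 linked lists; bars are medians of lists with 3 or more genes. Asf1b, Nasp, Mcm2 and Rrm2 are the genes that passed the test.

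Of 12 listed fibre markers, 8 were measured, and their summed intensity lay between 1986400 and 2875060 in knockout and 2397980 and 3102920 in control animals, with 0 that passed the test. Of the measured markers of other cells, 3 of 10 endothelial, 3 of 6 smooth muscle and pericyte, 2 of 4 Schwann cell, 1 of 6 satellite cell and 1 of 1 blood markers fell, while 0 of 7 fibroblast and 0 of 7 macrophage and leukocyte markers changed, where 4.12% of all genes fell and 7.85% changed. Their part in the values of the chaperone genes was not tested.

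The genes around the chaperones were read from the RefSeq gene order. Of 100 genes within 5 places of a member, 46 were measured, and 6 of these changed, 2 higher and 4 lower (7.85% of all genes changed). Near Asf1b on chromosome 8, 6 were measured. Misp3, 5 places away, had a level of 236 in knockout and 983 in control animals (difference -2.06 ± 0.16, SE; limma, adjusted p = 4.3e-05), and Adgrl1, an adhesion receptor gene 2 places away on the other side, rose by 0.56 on the log2 scale (adjusted p = 0.014). The nearest on either side, Gm10644 and Prkaca, the catalytic subunit of protein kinase A, stood at 0.09 and 0.06 (adjusted p = 0.651 and 0.795, limma). Near Chaf1a on chromosome 17, Plin5, 5 places away, which encodes a coat protein of lipid droplets, fell by 1.44 (limma, adjusted p = 0.0018). The 7 other measured neighbours stood between -0.20 and 0.23. Near Ubn2, Fmc1, 3 places away, fell by 0.62 (limma, adjusted p = 0.024) and Luc7l2, 5 places away, fell by 0.49 (adjusted p = 0.030). Fmc1 encodes an assembly factor of the ATP synthase and Luc7l2 a splicing factor. Beside Cabin1, Susd2 rose by 0.49 (limma, adjusted p = 0.040). Around Hira 4 were measured within 5 places and 0 passed the test, with Mrpl40 at -0.34 and 2510002D24Rik at 0.45 (limma, adjusted p = 0.147 and 0.053).

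Profiles over the 8 animals were set against those of all other named genes by the root mean square difference of their log2 levels, each centred on its own mean. Nearest to Asf1b were Spats1 (0.21), Pdlim2 (0.25), which encodes a PDZ and LIM domain protein, and Rsph1 (0.26), a radial spoke protein of motile cilia. Spats1 had a level of 1380 in knockout and 259 in control animals, and Rsph1 a level of 7963 in knockout and 1579 in control animals. Nearest to Hira were Cdx1 (0.043), Nhsl2 (0.057) and Ltbp1 (0.058), and nearest to Chaf1a were Ndufb11 (0.068), Bola1 (0.069) and Vnn1 (0.070), none of which passed the test. The members themselves were left out of this search.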

How the data were processed

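Total RNA of the tibialis anterior of 8 mice was hybridised 3 times per animal, per the labels. The authors deposited 1 linear probe intensity per array for 26423 rows. No source used here names the scanner, background correction or scaling; every array had a median of 626, and 0% to 5.37% of an array lay at or below 0. The label field names Cy3 and the labelling protocol Cy5. The number of animals limits the precision. Values under 38.8, the 5th percentile of all values, were set to that floor and log2 was taken. Hybridisations were averaged per animal, and all rows were fitted with limma 3.58.1 (lmFit, eBayes) in R 4.3.3, a step tested on simulated data. Symbols came from an old annotation, updated through RefSeq (18213 rows by symbol, 2126 by synonym). The brightest row stood for a gene in lists. Paralogs and subunits were compared by exact permutation in R, and single members were tested so in Python 3.11.15. The alternatives were scaling, floor, filter, feature, hybridisation, variance and leave-one-out settings. The members, lists and tests were chosen with earlier results of these data known. Genes named are all members, every list gene that passed (up to 4) or otherwise the 2 of smallest p, neighbours that passed and the 3 nearest profiles; Rbbp4, Dek, Supt6, Nap1l4, Set, H3f3b, the cycling genes and the other neighbours named were added after their values were seen.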

Additional observations from a re-analysis of the deposited data

Results flagged for a closer look

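Chaf1b in control animal 2 lay apart from the other control animals, at 7.59 on the log2 scale with the next animal at 7.77. The gap was 0.853 of the range of its group, above Dixon's critical value for 4 animals. It was the only 1 of 20 groups of a member so marked, and chance marks about 1 in 20.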

How the results depend on the processing

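Asf1b passed the test in all 28 alternative settings (1.65 to 2.46), and Hira in none of them (-0.31 to -0.01; adjusted p = 0.184 to 0.987, limma). The count of rows called, 1850, was 3277 under quantile normalization, 3062 under cyclic loess, 4058 with all arrays and the animal as a random block, 5375 with array weights, 17 and 431 among animals 1 and 2 and animals 3 and 4 alone, and 986 (without knockout animal 3) to 2239 when 1 animal or hybridisation was left out; it was 1114 without control animal 1 and 1141 without hybridisation 2. Member rows called numbered 2 under quantile normalization, cyclic loess, a floor 2 times as high, a filter on dim rows, 1 row per gene, the mean over rows and trended robust variances, each time with Chaf1a, 3 with array weights (also Ubn2, at 0.44), and 1 to 2 with 1 animal or hybridisation left out. The sign turned for Chaf1b with array weights (-0.11) and in animals 3 and 4 alone (-0.17), and for Ubn1 (-0.24) and Daxx (-0.042) in animals 1 and 2 alone. Leaving out 1 animal or hybridisation gave -0.11 to 0.17 for Chaf1b and -0.0085 to 0.19 for Ubn1. The Chaf1a minus Chaf1b difference ranged from -0.64 to -0.29 when 1 was left out. Without the 2 control arrays of highest 5th percentile, a setting chosen after seeing the data, it was -0.47 with p = 0.0571 (exact permutation test). The causes were not tested. With the hybridisation number as a replicate block, 3791 rows passed; deviations of same-numbered arrays of the groups correlated over rows at 0.085 to 0.470 and those of different numbers at -0.401 to 0.298; since the lowest same-number value was not over 0.1, the bar set for pairing, the numbers were not taken to pair arrays. Block and variance settings gave no value for the paired differences, and 2 animals against 2 were not tested for them.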

Other observations

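The spread between hybridisations of an animal was larger than that between animal means of a group in 3 of the 10 chaperone genes, Asf1a (0.27 and 0.25, SD on the log2 scale), Asf1b (0.169 and 0.166) and Chaf1a (0.29 and 0.16). In Chaf1b (0.14 and 0.27) and Hira (0.15 and 0.26) the animals differed more than the hybridisations. The first SD is of single hybridisations and the second of means of 3, which vary less, so they are not on equal terms. The summed intensity of the endothelial markers was 69970 to 99566 in knockout and 106573 to 135303 in control animals, and that of the smooth muscle and pericyte markers 25891 to 31081 in knockout and 35243 to 43969 in control animals. These sums weigh the brightest genes most. Acta2, the brightest of the 6 smooth muscle and pericyte markers, had group means of 17999 (knockout) and 27706 (control) and was 1 of 3 that fell. The next brightest, Cspg4 (-0.10) and Pdgfrb (-0.23), did not pass the test (limma, adjusted p = 0.645 and 0.556). Nor did Egfl7, the brightest endothelial marker (-0.25; limma, adjusted p = 0.455). Sums without the brightest genes were not computed here.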
